A study of Mus musculus with 6 samples.

Results

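The cohesin subunit genes Rec8, Rad21, Smc1a, Smc1b, Smc3, Stag1, Stag2 and Stag3 were examined in a paclitaxel-sensitive and a paclitaxel-resistant mouse gastric adenocarcinoma line. They were taken by symbol, 8 of the 21959 genes in the count table, and the set was picked because Rec8 counts were lost in the resistant line. For that reason the difference in Rec8 is described here without a test. Of the 8 genes, 6 passed the filter on low counts. The cells came from gastric organoids of a C57BL/6J mouse carrying Trp53 flox/flox, Cdh1 flox/flox and Mist1-CreER, an inducible Cre recombinase driven from the Mist1 gene, by way of a subcutaneous tumour that the recombined organoids formed in nude mice. The parental line is called MPC in the labels and MTC in the study. The resistant line, MPC-PTX or MTC-R, was derived from it by over 30 cycles of paclitaxel (PTX), a drug that stabilises microtubules and blocks mitosis. Both lines share the genotype label CDH1-/-;Trp53-/- and both were selected from single clones, so each condition is 1 clonal line. Each line was sequenced in 3 libraries of polyadenylated RNA, all labelled as batch 1. The labels do not say whether the 3 libraries came from separate cultures, so the p-values measure the spread between these libraries, which may be technical.

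Cohesin is a ring that holds sister chromatids together from replication until anaphase and that also extrudes chromatin loops in interphase. In dividing somatic cells the ring is built from the SMC1A and SMC3 ATPases and the kleisin RAD21, with either STAG1 or STAG2 bound to the kleisin. In meiosis the kleisins REC8 and RAD21L, the ATPase SMC1B and the subunit STAG3 take the place of the somatic proteins. REC8 along chromosome arms is cleaved by separase in the first meiotic division and is protected at centromeres until the second.

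The sequence before the annotated start is printed for 3 genes that stand for the patterns found in the counts. Rec8 is the meiotic gene that was counted in every MPC library and had 1 count in all of MPC-PTX, Smc3 a mitotic gene counted in every library, and Smc1b a meiotic gene with no count in any library. The letters are from RefSeq (GRCm38.p6), written 5′ to 3′ on the strand of the gene, with each CG dinucleotide in capitals. The windows are chr14:55617916-55618036 (plus strand) for Rec8, chr19:53600146-53600395 (plus strand) for Smc3 and chr15:85131965-85132207 (minus strand) for Smc1b.
Rec8: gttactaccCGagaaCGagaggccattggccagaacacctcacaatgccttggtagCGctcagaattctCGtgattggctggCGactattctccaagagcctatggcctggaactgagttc
Smc3: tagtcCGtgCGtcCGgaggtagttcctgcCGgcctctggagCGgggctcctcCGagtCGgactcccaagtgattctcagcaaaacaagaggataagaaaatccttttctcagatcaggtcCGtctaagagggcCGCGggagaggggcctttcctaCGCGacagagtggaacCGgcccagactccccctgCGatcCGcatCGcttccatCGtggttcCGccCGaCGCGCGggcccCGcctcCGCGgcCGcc
Smc1b: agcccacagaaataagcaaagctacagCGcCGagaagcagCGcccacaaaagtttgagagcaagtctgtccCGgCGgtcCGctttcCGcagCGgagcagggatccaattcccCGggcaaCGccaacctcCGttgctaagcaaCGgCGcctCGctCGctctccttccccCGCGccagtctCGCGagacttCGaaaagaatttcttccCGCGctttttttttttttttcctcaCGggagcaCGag
The RefSeq window covers 250 bases, of which the last 129 for Rec8 and the last 7 for Smc1b lie inside the GENCODE gene and are not printed. Over the whole window, Rec8 held 10 CG dinucleotides, at percentile 62.2 of 32851 mouse promoters whose median was 6. Smc3 held 26 and Smc1b 25, at percentiles 90.4 and 89.3. The letters CCAAT, searched on both strands, occurred 3 times in the Rec8 window, which 2.79% of promoters match or exceed, once in that of Smc1b and not in that of Smc3. At least 1 CCAAT stood in 33.8% of all promoters. Of the 3 sites in the Rec8 window, 2 lay in the printed bases. Other short motifs were searched as well, and none of them stood more than 1 time in the Rec8 window. The 2.79% was therefore not the only motif share looked at, and it carries no test. Methylation and factor binding were not measured, so these are descriptions of the letters alone.

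Sequencing gave 16574580 to 23148182 counts per library and 13897 to 14295 genes with at least 1 count. MPC replicate 3 stood apart from the other MPC libraries. The log2 ratio of its CPM (counts scaled to the TMM-adjusted library total) to the mean of the other two MPC libraries fell with the GC content of the transcript (Spearman correlation across 11776 genes −0.59) and rose with its length (0.48). These points are genes of the same libraries and not independent replicates. Results that rest on this library are therefore given with it and without it. Of 17 gastric epithelial markers 8 passed the filter, among them the keratins Krt8 and Krt18, and 4 were at 0 in every library. All 8 were called lower in MPC-PTX (edgeR, adjusted p under 0.05), where 15.6% of all tested genes were. Anxa10 passed the filter through the MPC libraries alone, so its call is not read as support. The list's summed level was 9266 to 10680 CPM in MPC and 5370 to 5532 CPM in MPC-PTX. The drop was uneven between the markers. Ctse had 4387, 6009 and 5850 counts in MPC and 30, 29 and 32 in MPC-PTX. Anxa10 had 1681, 2912 and 3059 against 10, 4 and 6. The other markers that passed had log2 fold changes (MPC-PTX over MPC) from −1.02 for Krt8 to −0.46 for Cldn18. Of the genes named in the genotype, Cdh1 had 2561, 2555 and 2812 counts in MPC and 3068, 3018 and 2217 in MPC-PTX, and Trp53 had 98, 63 and 120 in MPC and 142, 130 and 111 in MPC-PTX. Both genes thus had reads in every library, and counts over a whole gene do not show whether the floxed exons were absent. The study itself reported a deleted Cdh1 exon by Sanger sequencing and absent E-cadherin and p53 protein in the parental line.

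Rec8 was present at a moderate level in MPC and all but uncounted in MPC-PTX. Rec8 (ENSMUSG00000002324) lies on chromosome 14 at 55618037 to 55625395 (GRCm38, plus strand). Its raw counts were 330, 407 and 387 in the MPC libraries and 1, 0 and 0 in the MPC-PTX libraries. On the CPM scale these were 17.5, 20.98 and 18.6 against 0.0427, 0 and 0. Each MPC library lay far above each MPC-PTX library, and the 3 MPC values were close to each other, at 19.0 ± 1.77 CPM (SD, n = 3). Summed over libraries there were 1124 counts in MPC and 1 in MPC-PTX, a ratio of 1158 per raw total count, with an exact 95% interval from 207 to 45760. A total of 3 counts in a group, the limit that a count of 0 allows, would be 0.0508 CPM in MPC and 0.0480 CPM in MPC-PTX. The interval and this limit cover counting error only, since the reads carried no molecular identifiers. The interval pools the 3 libraries of each line and uses the values that chose the set. It is therefore a description of these counts and not a test between the lines. In bulk RNA, fewer cells with the transcript and less transcript per cell cannot be told apart. MPC replicate 3 did not stand apart for Rec8, with a log2 ratio to the mean of MPC replicates 1 and 2 of −0.05. The transcript was short and GC-rich beside the other subunits, at 2184 bases and 56.7% GC.

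**Figure D1:**
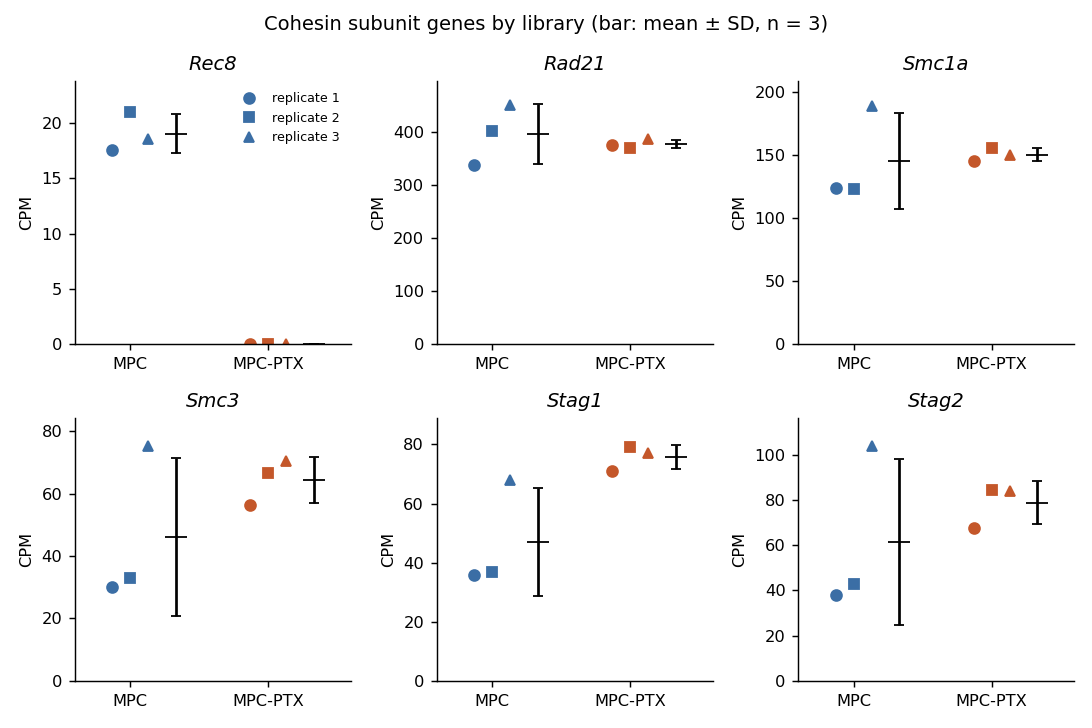
CPM of the 6 cohesin genes that passed the low-count filter, by library, with 1 panel a gene and a linear axis from 0 that differs between panels. Symbols mark the replicate number and the black bars the mean ± SD of 3 libraries. Rec8 is at 17.5 to 20.98 CPM in MPC and at or near 0 in MPC-PTX, and MPC replicate 3 is the highest MPC library in the other 5 panels.

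The other meiotic subunits were not detectable, or barely so, at this depth. Smc1b (chromosome 15 at 85064689 to 85131964, minus strand) had no count in any of the 6 libraries, which allows it at most 0.0167% of the 18014 counts of the Smc1 genes. Stag3 (chromosome 5 at 138280240 to 138312393, plus strand) had 2 counts in MPC-PTX replicate 1 and none in the other 5 libraries, against 16101 counts for all Stag genes. Rad21l, the second meiotic kleisin, was also at 0 in every library. Rec8 in MPC was therefore counted without a count for the other meiosis-specific subunits, Smc1b, Stag3 and Rad21l. The ATPase genes Smc3 and Smc1a were counted in every library.

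Expressed per length of the longest transcript, Rec8 made up 8.62%, 8.65% and 6.96% of the cohesin kleisin transcripts (Rec8, Rad21 and Rad21l) in MPC. In MPC-PTX the share was 0.0207%, 0% and 0%. The cohesin kleisin transcripts of MPC-PTX were thus nearly all Rad21, while in MPC the Rec8 share averaged 8.07% ± 0.966 (SD, n = 3). Its size depends on the length used, at 10.0% with the mean length over transcripts and 4.63% with no length scaling.

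Among the mitotic subunits, Rad21 and Smc1a had similar levels in both lines, and Smc3, Stag1 and Stag2 had higher means in MPC-PTX that did not pass the test over all 6 libraries. None of the 5 mitotic genes was called higher or lower (edgeR quasi-likelihood test, adjusted p under 0.05 over 11795 genes). Among all tested genes 14.1% were called higher and 15.6% lower in MPC-PTX, and the median log2 fold change was 0.04. At an unadjusted p under 0.05, 1 of the 5 was higher and 0 were lower, and the share of all genes at that threshold is not given here. DESeq2 called 1 higher (12.3% of all genes) and 0 lower (16.6%). By the rule of the study's methods, a log2 fold change over 1 in size with an unadjusted p under 0.05, none of the 5 was called (3.77% of all genes higher, 4.34% lower). Over the 5 genes the median log2 fold change, MPC-PTX over MPC, was 0.36.

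Rad21, the somatic kleisin and the protein that separase cuts at anaphase, is on chromosome 15 at 51962240 to 51991747 (minus strand). Its level was 337, 402 and 450 CPM in MPC and 375, 370 and 386 CPM in MPC-PTX. The MPC-PTX values lay inside the MPC range, and the log2 fold change was −0.07 ± 0.10 (SE; adjusted p = 0.636, edgeR). Over 14 alternative settings it stayed between −0.18 and −0.02 and was never called. The loss of Rec8 counts in MPC-PTX was not accompanied by a called change in Rad21.

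Smc1a, an ATPase subunit on chromosome X at 152016428 to 152062694 (plus strand), had 124, 123 and 189 CPM in MPC and 145, 155 and 150 CPM in MPC-PTX. The groups overlapped because MPC replicate 3 was above every MPC-PTX library while the other two MPC libraries were below them. The log2 fold change was 0.05 ± 0.17 (SE; adjusted p = 0.855, edgeR), and 0.23 ± 0.05 (SE; adjusted p = 0.00387) without MPC replicate 3.

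Smc3, the partner ATPase whose acetylation locks the ring on sister chromatids, lies on chromosome 19 at 53600398 to 53645833 (plus strand). It had 30.1, 32.8 and 75.3 CPM in MPC and 56.2, 66.7 and 70.3 CPM in MPC-PTX. MPC replicate 3 exceeded all MPC-PTX libraries, whereas MPC replicates 1 and 2 were well below them. The log2 fold change was 0.48 ± 0.35 (SE; adjusted p = 0.339, edgeR). Without MPC replicate 3 it was 0.98 ± 0.10 (SE; adjusted p = 5.47e-05).

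Stag1, one of the alternative subunits that dock on the kleisin, is on chromosome 9 at 100597798 to 100959375 (plus strand). Its 3 MPC libraries had 35.9, 36.8 and 68.0 CPM and its MPC-PTX libraries 71.1, 79.0 and 77.1 CPM. It was the only mitotic member whose groups did not overlap, a pattern seen for 24.2% of tested genes in the higher direction. The log2 fold change of 0.69 ± 0.25 (SE) had an adjusted p of 0.0792 in edgeR and of 0.0141 in DESeq2. It was called in 5 of the 14 alternative settings and was positive in all of them, from 0.53 to 1.01, with adjusted p from 4.91e-06 to 0.215.

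Stag2, the other docking subunit and a gene often mutated in human cancers, is on chromosome X at 42149317 to 42277185 (plus strand). It had 37.9, 42.7 and 104 CPM in MPC and 67.8, 84.5 and 84.1 CPM in MPC-PTX, so the groups overlapped through MPC replicate 3 alone. The log2 fold change was 0.36 ± 0.38 (SE; adjusted p = 0.513, edgeR) with all libraries and 0.91 ± 0.11 (SE; adjusted p = 0.000158) without that replicate.

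All 5 mitotic members were highest, among MPC libraries, in replicate 3, which was so for 40.3% of tested genes. Without it, Smc1a, Smc3, Stag1 and Stag2 were called higher, 4 of 5, where 25.4% of genes were called higher and 27.1% lower. Their GC content was low, from 38.1% for Stag2 to 46.9% for Smc1a, which placed them between percentiles 2.12 and 35.1 of tested genes, and their transcripts were long. A fit with all 6 libraries and a correction for GC content and length called Stag1 only, at a log2 fold change of 0.53 ± 0.09 (SE; adjusted p = 0.00241), where 19.4% of genes were called higher and 22.2% lower. In that fit Smc3 was at 0.39 ± 0.20 (SE; adjusted p = 0.166), Stag2 at 0.19 ± 0.14 (SE; adjusted p = 0.315) and Smc1a at −0.02 ± 0.11 (SE; adjusted p = 0.909). The part of GC content and of MPC replicate 3 in the mitotic subunits' values was not tested further.

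**Figure D2:**
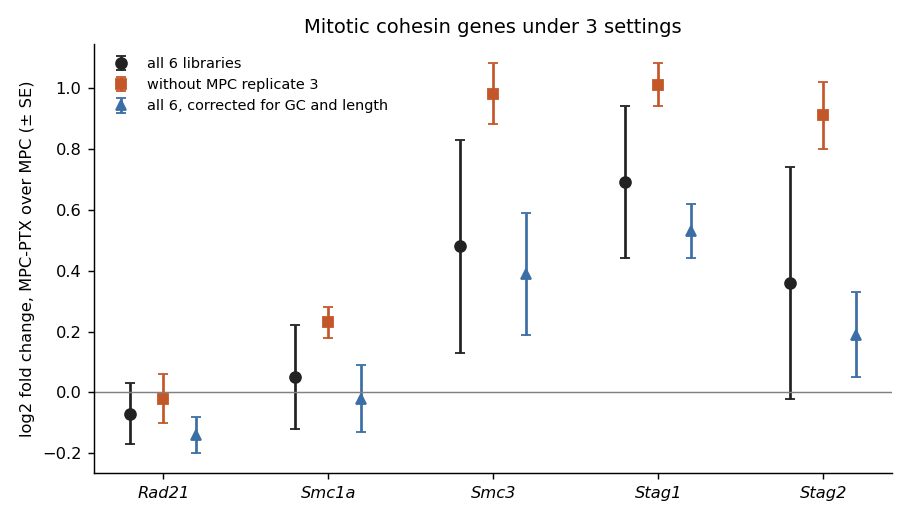
Log2 fold change (MPC-PTX over MPC, ± SE) of the 5 mitotic cohesin genes from edgeR with all 6 libraries (black circles), without MPC replicate 3 (orange squares) and with all 6 and a correction for GC content and length (blue triangles). Rad21 stays near 0 in each, Smc3 and Stag2 lie near 1 only without that library, and Stag1 is at 0.53 or above in all 3.

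**Figure D3:**
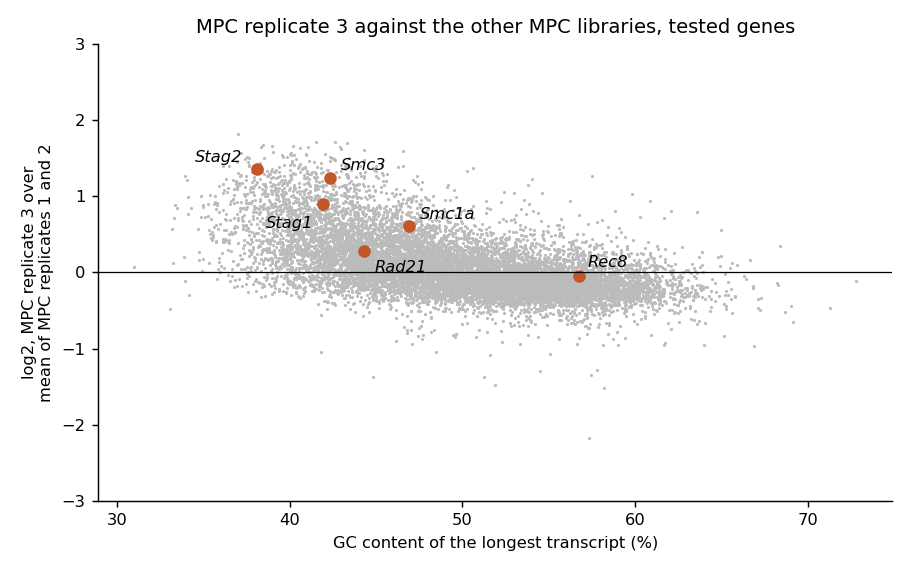
Log2 ratio of MPC replicate 3 to the mean of MPC replicates 1 and 2 (with 0.5 CPM added) against the GC content of the longest transcript, for 11776 tested genes (grey) and the 6 cohesin genes that passed the filter (orange). The ratio falls with GC content, with Stag2 at 1.35, Smc3 at 1.25 and Stag1 at 0.90 at the low-GC end and Rec8 at −0.05 at the high-GC end.

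Levels of the subunits were compared with each other per kilobase of the longest transcript. In MPC, Rad21 led at 100.2 ± 14.4 CPM per kb (SD, n = 3), followed by Smc1a at 31.0 ± 8.07 CPM per kb. The next genes were Stag2 at 9.96 ± 5.95, Smc3 at 9.50 ± 5.22, Rec8 at 8.72 ± 0.809 and Stag1 at 7.58 ± 2.96 CPM per kb. The order of these last 4 turned with MPC replicate 3. In MPC replicates 1 and 2, Rec8 was above the other 3 genes, at 8.03 and 9.61 CPM per kb against 6.21 and 6.76 for Smc3, 5.81 and 5.94 for Stag1 and 6.14 and 6.93 for Stag2. In replicate 3 it was below them, at 8.51 CPM per kb against 15.5 for Smc3 and 16.8 for Stag2, with Stag1 also above it. The place of Rec8 in replicates 1 and 2 rests on the length scaling. Unscaled, Rec8 was at 17.5 and 20.98 CPM there against 30.1 and 32.8 for Smc3, with Stag1 and Stag2 higher still. In each MPC library Rec8 was far below its counterpart Rad21, which ranged from 85.1 to 114 CPM per kb. In MPC-PTX the order was Rad21 at 95.3 ± 2.12, Smc1a at 32.0 ± 1.06, Smc3 at 13.3 ± 1.51, Stag2 at 12.8 ± 1.54 and Stag1 at 12.2 ± 0.671 CPM per kb, where the last 3 did not differ beyond their spread.

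The balance between mitotic subunits was given by ratios per kilobase within a library. Rad21 over Smc3 was 13.7, 15.0 and 7.33 in MPC and 8.17, 6.81 and 6.74 in MPC-PTX. MPC replicate 3 fell among the MPC-PTX libraries, and the difference gave p = 0.2 in a two-sided exact permutation test. The smallest p that 3 against 3 libraries can give is 0.1. Smc1a over Smc3 was 4.26, 3.87 and 2.60 in MPC against 2.67, 2.41 and 2.20 in MPC-PTX (exact permutation p = 0.2), and Stag1 over Stag2 was 0.946, 0.858 and 0.654 against 1.05, 0.933 and 0.915 (exact permutation p = 0.3). All 3 ratios had a Benjamini-Hochberg p of 0.3. Stag1 made up 44.8% ± 4.69 (SD, n = 3) of the Stag1 and Stag2 transcripts in MPC and 49.1% ± 1.80 in MPC-PTX, with overlapping values.

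Transcripts for the proteins that load, release, acetylate and protect cohesin were followed in a list of 30 regulator genes, of which 28 passed the filter. In MPC-PTX 4 were called higher, 14.3% of the list against 14.1% of all tested genes, and 1 was called lower, 3.57% against 15.6%. The share called higher was thus that of all genes, and the list's median log2 fold change was 0.15 against 0.04 for all genes. Mau2, the partner of Nipbl in the loading complex, had 97.1, 88.5 and 88.1 CPM in MPC and 116, 118 and 112 CPM in MPC-PTX (log2 fold change 0.34 ± 0.07 SE, adjusted p = 0.00944, edgeR). Ankrd11, a chromatin regulator whose human gene is mutated in a syndrome that overlaps with cohesin disorders, rose from 131, 139 and 192 CPM to 232, 251 and 235 CPM (0.63 ± 0.14 SE, adjusted p = 0.0164). Sgo1, the shugoshin that protects centromeric cohesin in mitosis, rose by 0.38 ± 0.11 (SE; adjusted p = 0.0353), and Haspin, the histone H3 kinase that acts beside it, by 0.28 ± 0.07 (SE; adjusted p = 0.0239). Hdac8, the deacetylase that recycles SMC3 after mitosis, had 14.0, 14.5 and 12.97 CPM in MPC and 8.93, 9.47 and 10.9 CPM in MPC-PTX, and fell by 0.50 on the log2 scale (SE 0.11, adjusted p = 0.0153). For all 5 genes the groups did not overlap, as for 24.2% of tested genes in the higher and 22.7% in the lower direction.

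The regulators with the 2 largest fitted differences, Pds5b and Nipbl, were not called. Pds5b, which binds the ring with WAPL, had 43.6, 45.3 and 85.4 CPM in MPC and 97.7, 102 and 105 CPM in MPC-PTX (log2 fold change 0.80 ± 0.26 SE, adjusted p = 0.0557). Nipbl, the loader itself, had 20.2, 24.2 and 63.8 CPM against 50.8, 63.3 and 65.1 CPM (0.72 ± 0.42 SE, adjusted p = 0.242). Wapl, the release factor, had a log2 fold change of 0.62 (adjusted p = 0.192) and Pds5a of 0.50 (adjusted p = 0.276). As with Smc3 and Stag2, MPC replicate 3 lay near the MPC-PTX libraries. Without that library 13 of the regulators were called higher and 6 lower, where 25.4% and 27.1% of all genes were called. In that fit the log2 fold changes were Nipbl at 1.37 ± 0.13, Pds5b at 1.13 ± 0.06, Wapl at 1.07 ± 0.08 and Pds5a at 0.93 ± 0.10 (SE). With the correction for GC content and length and all libraries, 6 were called higher and 3 lower (19.4% and 22.2% of all genes), with Pds5b at 0.58 ± 0.07 (SE; adjusted p = 0.00038) and Wapl at 0.47 ± 0.14 (SE; adjusted p = 0.0325). The separase gene Espl1, its inhibitor Pttg1, the acetyltransferases Esco1 and Esco2, the antagonist of release Cdca5 and the loop boundary factor Ctcf were not called, with log2 fold changes from −0.12 for Cdca5 to 0.36 for Esco1. All 5 calls of the list were lost in some fits that leave out 1 library. Mau2 lost it in 2 of 6 (highest adjusted p = 0.059), Hdac8 in 3 (0.0767), Ankrd11 in 4 (0.0674), Haspin in 4 (0.111) and Sgo1 in 5 (0.118).

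The related SMC complexes, condensin and SMC5/6, gave 17 of 18 genes that passed the filter. None was called higher (edgeR, with 0 at an unadjusted p under 0.05 and 0 in DESeq2) and 3 were called lower, 17.6% of the list against 15.6% of all genes, with a median log2 fold change of 0.17. Nsmce2, the SUMO ligase of the SMC5/6 complex, had 41.5, 47.0 and 42.5 CPM in MPC and 31.7, 29.9 and 33.1 CPM in MPC-PTX, and it fell by 0.47 on the log2 scale (SE 0.09, adjusted p = 0.00634). Ncapd2 and Ncaph, subunits of condensin I, fell by 0.27 (SE 0.06, adjusted p = 0.0154) and 0.20 (SE 0.06, adjusted p = 0.0487). Smc2, the ATPase shared by both condensins, had 17.8, 20.5 and 46.9 CPM in MPC and 38.6, 44.6 and 45.03 CPM in MPC-PTX, the pattern of Smc3, with a log2 fold change of 0.59 ± 0.35 (SE; adjusted p = 0.257). Without MPC replicate 3, 9 of the list were called higher and 6 lower, in a fit that called 25.4% of all genes higher and 27.1% lower, and Smc2 was at 1.11 ± 0.11 (SE). With the GC and length correction the counts were 0 higher and 3 lower (19.4% and 22.2% of all genes). Nsmce2 kept its call with any 1 library left out, while Ncapd2 lost it in 4 of 6 such fits (highest adjusted p = 0.0842) and Ncaph in 5 (0.219).

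**Figure D4:**
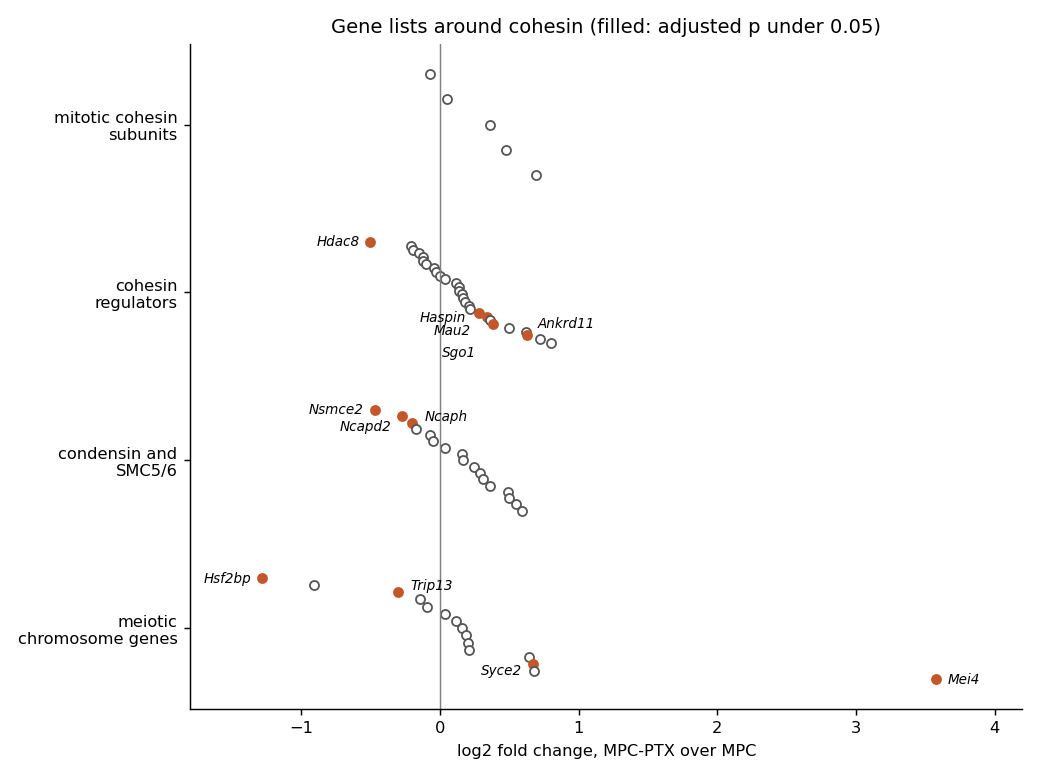
Log2 fold change (MPC-PTX over MPC) of every tested gene in the mitotic cohesin subunits (5), cohesin regulators (28), condensin and SMC5/6 genes (17) and meiotic chromosome genes (15), each point 1 gene, sorted within its list. Filled points are called at an adjusted p under 0.05 and named; Mei4 passed the low-count filter through MPC-PTX alone. Calls lie on both sides of 0 in the regulators and the meiotic genes, and no mitotic subunit is filled.

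Rec8 was set beside a list of 50 other genes of meiotic chromosomes, which build the synaptonemal complex and make and repair meiotic double-strand breaks. Of these 35 did not pass the filter, with at most 15 counts in any library, and 17 were at 0 in all 6 libraries. Among the 15 that passed, 2 were called higher and 2 lower, 13.3% in each direction against 14.1% and 15.6% of all genes, with a median log2 fold change of 0.16. These shares are near those of all genes. Several of the 15, such as Cdk2 and Mlh3, also act in somatic cells.

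The called meiotic genes went in both directions. Hsf2bp, which brings BRCA2 to meiotic recombination sites, had 22.1, 20.8 and 17.5 CPM in MPC and 8.42, 8.48 and 7.90 CPM in MPC-PTX, and fell by 1.28 on the log2 scale (SE 0.12, adjusted p = 0.000313, edgeR). Trip13, an ATPase that remodels HORMA domain proteins in meiosis and in the spindle checkpoint, fell by 0.30 (SE 0.07, adjusted p = 0.0201). Syce2, of the central element of the synaptonemal complex, rose from 25.0, 23.8 and 20.1 CPM to 36.3, 37.5 and 36.2 CPM (log2 fold change 0.67 ± 0.10 SE, adjusted p = 0.00271). Mei4, needed for meiotic double-strand breaks, had 7, 0 and 2 raw counts in MPC and 50, 32 and 36 in MPC-PTX. It passed the filter through the MPC-PTX libraries alone, so its call is not read as support, and it was not tested where each library had to hold 10 counts. Hsf2bp and Syce2 kept their calls when any 1 library was left out, and Trip13 lost it in 3 of 6 such fits (highest adjusted p = 0.104). The groups did not overlap for these 4 genes. Among those not called, Rec114 was at −0.91 (adjusted p = 0.131), Ythdc2 at 0.68 (0.154) and Gm960, also known as Top6bl, at 0.64 (0.0584). Rec114 passed the filter through the MPC libraries alone. Without MPC replicate 3, 5 of the list were called higher and 2 lower (25.4% and 27.1% of all genes), and with the GC and length correction 3 and 2 (19.4% and 22.2%).

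Germ cell markers were at or near 0 in both lines. None of the 20 passed the filter, 10 were at 0 in every library, and the defining markers Dazl and Dppa3 were among these. The summed level of the list was 0.206 to 0.913 CPM in MPC and 0.832 to 1.31 CPM in MPC-PTX. Ddx4, a helicase of germ cells, had at most 6 counts in any library, and Tex14, of germ cell intercellular bridges, at most 16. The Rec8 transcripts of MPC, at 17.5 CPM or more, were thus counted beside almost no germ cell marker transcripts. Fibroblast markers summed to 9.88 to 10.9 CPM in MPC and 8.71 to 10.0 in MPC-PTX, leukocyte markers to 11.3 to 12.8 and 9.92 to 10.7, and endothelial markers to 3.40 to 4.84 and 3.07 to 3.39. Their part in the subunits' values was not tested. Of 27 cycling cell genes, 1 was called higher and 7 lower in MPC-PTX (3.7% and 25.9% of the list, against 14.1% and 15.6% of all genes), with a median log2 fold change of −0.05.

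The genes beside Rec8 were mostly counted in both lines. The 6 nearest annotated genes on either side gave 10 tested genes, with log2 fold changes from −0.91 to 0.38, of which 1 was called higher and 4 lower (14.1% and 15.6% of all genes). Fitm1 and Gm49378 had no count in any library. Irf9, the nearest gene at the lower coordinate and an interferon response factor, had 33.7, 41.2 and 35.6 CPM in MPC and 30.9, 30.3 and 31.4 CPM in MPC-PTX (log2 fold change −0.26 ± 0.10 SE, adjusted p = 0.0859). Ipo4, a nuclear import receptor at the higher coordinate on the opposite strand, had 44.6, 38.4 and 33.7 CPM against 49.3, 42.7 and 47.1 CPM (0.25 ± 0.12 SE, adjusted p = 0.151). The annotated ends of Rec8 and Ipo4 are 5 bases apart, and whether counting used the strand is not given in the sources used here, so reads at their ends may be shared. Called genes were Psme1 (−0.51, adjusted p = 0.00321) and Psme2 (−0.33, adjusted p = 0.036), which encode a proteasome activator, Emc9 (−0.91, adjusted p = 0.00941), Tm9sf1 (−0.26, adjusted p = 0.0201) and Mdp1 (0.34, adjusted p = 0.0211).

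Within 1 Mb of the Rec8 start 39 other genes were tested, with a median log2 fold change of −0.11, against −0.02 over the 382 tested genes of chromosome 14. Of the 39, 4 were called higher, 10.3% against 14.1% of all genes, and 11 lower, 28.2% against 15.6%. The log2 fold changes ran from −4.54 to 0.72. Gzme and Mcpt8, granule protease genes, stood at −4.54 ± 0.43 and −3.31 ± 0.28 (SE), at 503 and 467 kb from Rec8, and Sdr39u1 at −1.99 ± 0.34 (SE), at 282 kb. These 3 were named after their values were seen. Between them and Rec8 lay genes with differences near 0 and genes called higher, such as Nfatc4 at 0.72 ± 0.13 (SE). Around the mitotic members the medians were −0.12 for Rad21 (3 genes), 0.02 for Smc1a (13), −0.19 for Smc3 (10), −0.13 for Stag1 (7) and 0.06 for Stag2 (2).

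**Figure D5:**
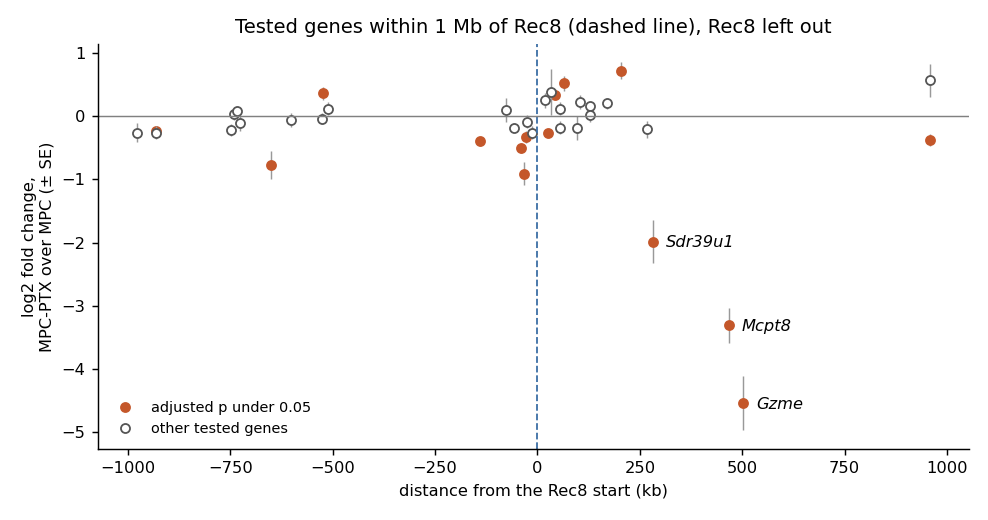
Log2 fold change (MPC-PTX over MPC, ± SE) of the 39 tested genes that start within 1 Mb of the Rec8 start, against distance in kb, with Rec8 left out and its start at the dashed line. Filled points are called at an adjusted p under 0.05. All but 3 lie within 1 of 0, and those 3, Sdr39u1, Mcpt8 and Gzme, are at 282 to 503 kb.

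The tested genes whose levels over the 6 libraries were most like those of Rec8, by Euclidean distance of log2 CPM, were Gramd1b (1.71), Spon2 (2.26), Sec16b (2.39), Aldh1l1 (2.40), Car8 (2.95), Ggta1 (3.07), Slc4a9 (3.13) and Myrf (3.40). Since likeness to Rec8 chose them, their difference between the lines is a description. Gramd1b, a sterol transporter, had 148, 222 and 250 counts in MPC and 1, 0 and 1 in MPC-PTX. Spon2, a secreted matrix protein, had 322, 380 and 331 against 5, 3 and 3, and Myrf, a transcription factor, 331, 434 and 440 against 6, 8 and 6. Rec8 reached the lowest summed MPC-PTX count of these genes, at 1. None of the 8 is on chromosome 14.

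The genes most like the mitotic members were found by the same measure. Nearest to Smc3 was Dock11 (distance 0.13), with 29.4, 31.0 and 79.4 CPM in MPC and 56.6, 68.5 and 68.8 CPM in MPC-PTX, followed by Med13 and Cdc42bpa. Stag1 was most like Pik3r1, Myo5a and Nr1d2, and Stag2 most like Fmr1, Rbbp6 and Mob1b. Rad21, whose levels varied little between the lines, was most like Ddx6, Skp1 and Cd44, and Smc1a most like Picalm, Hnrnpdl and Cavin2.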

How the data were processed

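RNA-seq of 3 MPC and 3 MPC-PTX libraries was analysed from the deposited read counts per gene. The authors trimmed reads with fastp 0.22.0 and aligned them with HISAT2; the counter, its strand setting, the genome release and the annotation are not given in the sources used here. Counts were analysed with edgeR 4.0.16 (R 4.3.3; TMM, filterByExpr, robust quasi-likelihood F-test), and p-values were adjusted by Benjamini-Hochberg over 11795 tested genes, with calls at an adjusted p under 0.05. CPM values were computed from these counts with TMM factors. The script was tested on simulated data with 200 changed genes. The share of calls that were false was 7.5% in edgeR, 7.96% with the GC and length correction and 13.1% in DESeq2. Each exceeded the rate that an adjusted p under 0.05 aims at. Alternatives were DESeq2 1.42.0, other size factors and filters, a replicate block, a loess correction for GC content and length, and each library left out. Gene IDs were looked up in GENCODE M21 (GRCm38), which gave the coordinates, transcript length and base composition of 11776 tested genes. Replicate libraries differed by more than sampling noise, so none was a copy.

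The members and lists were chosen with earlier results of these data known. Named were the members and Rad21l, list genes that were called or among the 8 largest differences of a list, the 6 nearest genes on each side of Rec8, and the genes nearest in level (8 for Rec8, 3 for each mitotic member). Group medians of lists are descriptions, with no set test. Proteins were not analysed here.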

Additional observations from a re-analysis of the deposited data

How the results depend on the processing

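Counts of calls moved with single libraries of both groups. With each library left out in turn, genes called higher ran from 803 to 3020 and lower from 1077 to 3227 (1668 and 1841 with all 6), mitotic members called higher from 0 to 4, regulators higher from 0 to 13 and lower from 0 to 6, condensin and SMC5/6 genes higher from 0 to 9 and lower from 1 to 6, meiotic genes higher from 2 to 5 and lower from 1 to 2, and genes near members higher from 4 to 24 and lower from 13 to 45. The highest count in each range was reached without MPC replicate 3, and the lowest counts of genes called higher, 803 overall and 4 near members, came without MPC-PTX replicate 1; without MPC-PTX replicate 1 or 2, no regulator was called higher. The Rec8 share of cohesin kleisin ran from 7.79% to 8.63% in MPC and from 0% to 0.0103% in MPC-PTX.

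Deviations of same-numbered libraries had correlations of 0.151, −0.0227 and 0.173, and those of differently numbered libraries ran from −0.228 to 0.153. These overlapping values do not settle whether the numbers pair the libraries. With the replicate block, 1 mitotic member and 7 regulators were called higher (15.2% of all genes). With the GC and length correction, 1 member was called higher and 3 regulators lower (19.4% and 22.2% of all genes). With that correction and the block, 2 members, 8 regulators, 4 condensin and SMC5/6 genes and 4 meiotic genes were called higher and 2 regulators lower. That fit called 19.4% of all genes higher and 22.1% lower. DESeq2 called 1 member and 8 genes near members higher (12.3% of all genes). A minimum of 10 counts in every sample left 1 meiotic gene called higher, since Mei4 was not tested there. The Rec8 share in MPC was 10.0% with mean transcript lengths and 4.63% unscaled. Apart from the left-out libraries, 485 of the values for 65 named genes kept their side of the threshold, 28 gained a call and 5 lost one. With 1 library left out, 322 kept their side, 38 gained a call and 30 lost one. None reversed in either case, and the cause was not tested.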
